A study of Mus musculus with 6 samples.

Results

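Tight junctions are the seals between neighbouring epithelial or endothelial cells, and the transcripts of 9 of their proteins were followed in the RPE-choroid of mice with and without subretinal fibrosis. The genes were Cldn1, Cldn2, Cldn5, Cldn10, Cldn19, Ocln, Tjp1, F11r and Cgn. They were chosen by name, as tight junction genes of the retinal pigment epithelium (RPE) and of endothelium, and all 9 were found among the 15663 genes listed for every mouse. RPE-choroid is the pigmented epithelium that underlies the photoreceptors, taken with the choroid and its blood vessels. The 3 control mice were untreated and the 3 subretinal fibrosis (SRF) mice had received the two-stage laser treatment, in which each eye received 4 laser burns and every lesion was burnt again 10 days later. RNA was taken 20 days after the second laser. All mice were C57BL/6 males (C57BL/6J in the methods), supplied at 8 to 10 weeks of age, and no mutant allele or transgene is given for any of them. The labels give whole RPE-choroid as the tissue, so lesion and surrounding tissue were measured together, and in such a bulk sample fewer cells of a type and less RNA per cell cannot be told apart.

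Claudins are the membrane proteins that decide what a tight junction lets through. Cldn1, Cldn5 and Cldn19 belong to the claudins that seal the space between cells, whereas Cldn2 and Cldn10 form pores for small ions and, in the case of Cldn2, water. Occludin (Ocln) and JAM-A (F11r) are other membrane proteins of the junction, and ZO-1 (Tjp1) and cingulin (Cgn) are the scaffold proteins that tie it to the actin cytoskeleton. In the eye, the tight junctions of the RPE form the outer blood-retinal barrier. The fenestrated capillaries of the choroid lie outside it, and Cldn5 is the main claudin of endothelium.

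The sequences in front of 4 of the claudins are shown because these genes carry the comparisons that follow. Cldn5 marks endothelium, Cldn19 was taken as the RPE claudin, and Cldn2 and Cldn10 are the members whose groups did not overlap. Each is the stretch of up to 250 bases before a RefSeq transcription start on GRCm38.p6, forward strand, 5′ to 3′. Capitals mark matches on either strand to 6 short motifs, CACGTG (E-box), CATGTG (the M-box core), GGATTA (the OTX core), CAGGTG (an E2-box), TATAAA (the TATA box) and CCAAT (the CCAAT box).
Cldn5: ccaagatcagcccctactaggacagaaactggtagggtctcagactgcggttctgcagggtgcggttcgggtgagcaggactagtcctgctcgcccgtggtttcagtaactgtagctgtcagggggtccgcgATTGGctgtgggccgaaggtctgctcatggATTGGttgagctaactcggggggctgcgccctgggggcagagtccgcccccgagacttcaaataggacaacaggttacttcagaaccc
Cldn19: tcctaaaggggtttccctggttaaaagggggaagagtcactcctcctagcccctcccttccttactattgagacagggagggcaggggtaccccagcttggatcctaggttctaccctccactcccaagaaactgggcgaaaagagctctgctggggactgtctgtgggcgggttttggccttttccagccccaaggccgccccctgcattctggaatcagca
Cldn2: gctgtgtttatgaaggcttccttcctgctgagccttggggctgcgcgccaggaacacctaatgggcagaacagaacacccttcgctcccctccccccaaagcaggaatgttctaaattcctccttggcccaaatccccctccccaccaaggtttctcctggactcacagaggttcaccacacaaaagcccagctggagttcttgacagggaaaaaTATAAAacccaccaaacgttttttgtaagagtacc
Cldn10: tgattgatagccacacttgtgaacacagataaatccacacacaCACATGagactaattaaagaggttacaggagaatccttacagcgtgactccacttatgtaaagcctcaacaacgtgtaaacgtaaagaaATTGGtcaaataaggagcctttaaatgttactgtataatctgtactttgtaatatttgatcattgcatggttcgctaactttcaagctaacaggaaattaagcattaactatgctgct
The Cldn5 window is chr16:18776597-18776846, the Cldn19 window chr4:119255191-119255413, the Cldn2 window chrX:139800558-139800807 and the Cldn10 window chr14:118787621-118787870. The Cldn19 window has 223 bases, since a GENCODE transcript of the gene starts inside the rest. Cldn10 has a second RefSeq start further into the gene, and gene counts do not separate transcripts from the 2 starts. The Cldn2 window holds TATAAA, 35 bases before the start, a motif found in 12.4% of all 32851 RefSeq promoter windows of 250 bases. The Cldn10 window holds the M-box core on the other strand, as 12.3% of all windows do on either strand, and the CCAAT box on the other strand (33.8% of all windows). No motif searched was found in the windows of both Cldn2 and Cldn10. The Cldn5 window holds the CCAAT box on the other strand at 2 places, and the Cldn19 window holds none of the 6 motifs. Over the 12 windows of the 9 genes, the CCAAT box was found in 5, the E2-box in 2, the TATA box, M-box core and E-box in 1 each and the OTX core in 0. Of all windows, 17.2% hold the E2-box, 6.02% the E-box and 6.25% the OTX core. GC content over the 4 windows shown ran from 36% for Cldn10 to 59.6% for Cldn5.

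Counts on genes summed to between 13667310 and 24356023 per mouse, at which 3 counts are worth 0.125 to 0.223 CPM, a count scaled to the total of its library. The mean level of 19 RPE genes was 9.67 to 9.84 log2 CPM in control and 9.28 to 9.59 in SRF mice, a 1.48-fold range. All SRF mice lay below all control mice in this mean and for 9 of the 19 genes, beside 6.43% of all genes tested. The means of the endothelial and Schwann cell lists ranged over 1.31-fold and 1.76-fold. RNA of the neural retina and of ocular surface epithelium varied far more. The mean over 25 photoreceptor genes was 7.78 and 7.84 log2 CPM in control mouse 1 and SRF mouse 3, and between 3.87 and 5.05 in the other 4. The mean over 12 genes of ocular surface epithelium (keratins and desmosome genes of cornea and conjunctiva) ran from 3.59 in control mouse 1 to 6.59 in control mouse 3, and from 4.54 to 5.43 in SRF mice. The mean over 14 macrophage genes also followed the groups, at 5.77 to 6.09 in control and 6.58 to 6.97 in SRF mice. All SRF mice lay above all control mice for 9 of the 14, beside 6.71% of all genes tested.

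The members differed widely in level. On the FPKM scale, which divides by transcript length and so allows genes to be compared, Cldn5 was the most abundant, at 159 ± 17.2 FPKM (SD, n = 3) in control and 184 ± 43.9 FPKM (SD, n = 3) in SRF mice. Cldn1 followed at 85.7 ± 7.16 and 75.2 ± 10.1 FPKM, and F11r at 42.1 ± 12.4 and 45.2 ± 3.90 FPKM. The ranges of these 3 genes over the 6 mice were separate from each other and from Cldn2. Below them the order was less clear. Cldn2, with a mean of 16.7 FPKM over the 6 mice, was above Cldn10, with 11.3, in each of the 6, but their ranges overlapped. Cldn10, Tjp1 (9.89), Cgn (9.06) and Ocln (9.03) did not separate from their neighbours. Cldn19 was the lowest, at 2.05 ± 1.67 FPKM in control and 1.46 ± 0.560 FPKM in SRF mice, below every other member in all 6 mice. Only 10.5% of the 13454 genes with enough counts to be tested had a lower mean FPKM. Cldn5 alone made up between 42.9% and 55.7% of the summed FPKM of the 9 genes, and Cldn1 between 20.7% and 29.1%.

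**Figure D1:**
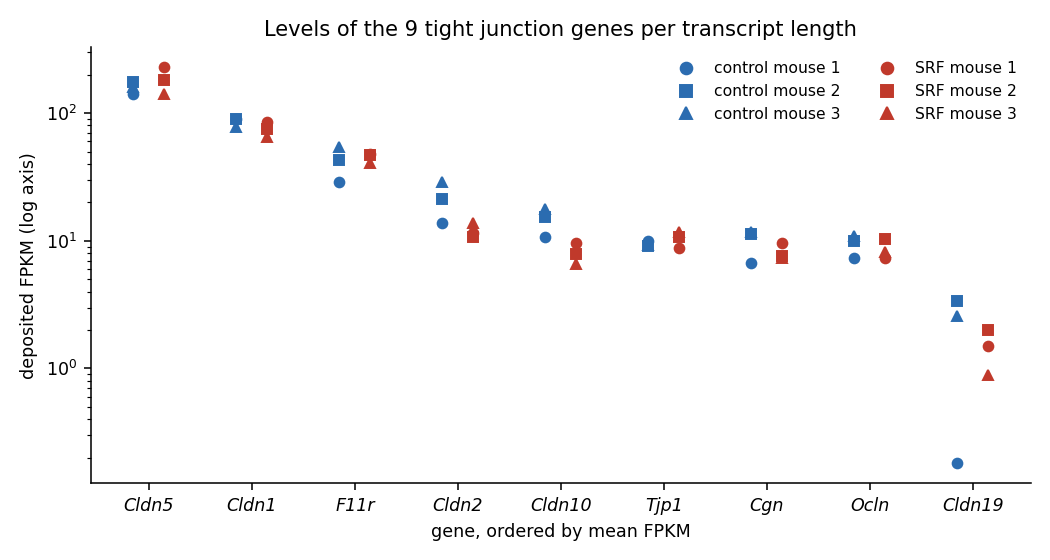
Deposited FPKM (log axis) of the 9 genes in each of the 3 control mice (blue) and 3 SRF mice (red), ordered by mean. Cldn5 is highest at a mean of 172 FPKM, and Cldn19 is lowest, with control mouse 1 at 0.18 FPKM far below the other mice.

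All 9 genes had more than 50 counts in at least 2 mice and were tested. A gene was called where the quasi-likelihood test of edgeR gave p under 0.05, after Benjamini-Hochberg adjustment over all 13454 genes, and the log2 fold change was 0.5 or more in size. Of the 9 genes 0 were called, and of all genes tested 0%. DESeq2 also called 0 of the 9, against 1.14% of all genes. An unadjusted p-value under 0.05 in the edgeR test was reached by 2 of the 9, Cldn2 and Cldn10, both lower in SRF, against 2.85% of all genes lower, 4.16% higher and 7.01% in either direction. The median log2 fold change of the 9 was -0.25, with 6 negative and 3 positive, and that of all tested genes was 0.00.

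The pore-forming claudins Cldn2 and Cldn10 had the largest differences. Cldn2 (ENSMUSG00000047230, chromosome X, 139800828 to 139811386, forward strand) was at 42.6, 65.4 and 88.9 CPM in control mice 1, 2 and 3 and at 34.9, 31.7 and 41.6 CPM in SRF mice 1, 2 and 3. Every SRF mouse lay below every control mouse, but control mouse 1 was close to SRF mouse 3, and the control mice were spread over 2.09-fold. The means were 65.6 ± 23.1 CPM (SD, n = 3) and 36.1 ± 5.05 CPM (SD, n = 3), which gave -0.86 on the log2 scale (standard error 0.27). With Benjamini-Hochberg adjustment, the p-value was 0.503 from edgeR and 0.111 from DESeq2.

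Cldn10 (ENSMUSG00000022132, chromosome 14, 118787908 to 118875489, forward strand) was at 18.1, 25.7 and 29.8 CPM in control mice 1, 2 and 3. In SRF mice 1, 2 and 3 it was at 16.3, 13.1 and 10.98 CPM. Again the groups did not overlap, and control mouse 1 was the lowest control. The means were 24.5 ± 5.95 and 13.5 ± 2.69 CPM, again -0.86 on the log2 scale (standard error 0.24). With Benjamini-Hochberg adjustment, edgeR gave an adjusted p of 0.421 and DESeq2 one of 0.1. Groups that did not overlap, with all SRF mice lower, were found for 2 of the 9 genes and for 6.43% of all genes tested, and with all SRF mice higher for 0 of the 9 and 6.71% of all genes. Without control mouse 1, the log2 fold changes of Cldn2 and Cldn10 were -1.09 and -1.04 in the edgeR test and DESeq2 called both, with adjusted p-values of 0.000376 and 0.00408 by the Benjamini-Hochberg method, and 1.86% of all genes tested. Without SRF mouse 3, the other library rich in photoreceptor RNA, they were -0.98 and -0.73, and neither gene was called by either tool, while DESeq2 called 2.59% of all genes.

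In control mice, ocular surface epithelium RNA was lowest in mouse 1 and highest in mouse 3, as Cldn2, Cldn10, Ocln, F11r and Cgn were. Total counts had the same order in these mice, and photoreceptor RNA had the reverse order. The cause of this order was not tested. Over all 6 mice, with log2 CPM centred on its mean, Cldn2 and Cldn10 were closer to the RPE genes. Their root mean square differences were 0.45 and 0.36 to the RPE genes and 0.78 each to the surface epithelium genes. Without control mouse 1, those to surface epithelium were 0.46 for Cldn2 and 0.28 for Cldn10, against 0.46 and 0.38 to the RPE genes. All 12 surface epithelium genes had negative log2 fold changes, with a median of -0.43 and 0 at an unadjusted p-value under 0.05. With the mean level of these genes as a covariate, Cldn2 and Cldn10 were at -0.74 (standard error 0.20) and -0.79 (standard error 0.16), and with the photoreceptor level at -0.84 and -0.89. Of 19 RPE marker genes such as Rpe65 and Lrat, 16 had negative log2 fold changes, 8 of them at an unadjusted p-value under 0.05 (2.85% of all genes), with a median of -0.33. The part of the RPE level in the Cldn2 and Cldn10 values was not tested.

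**Figure D2:**
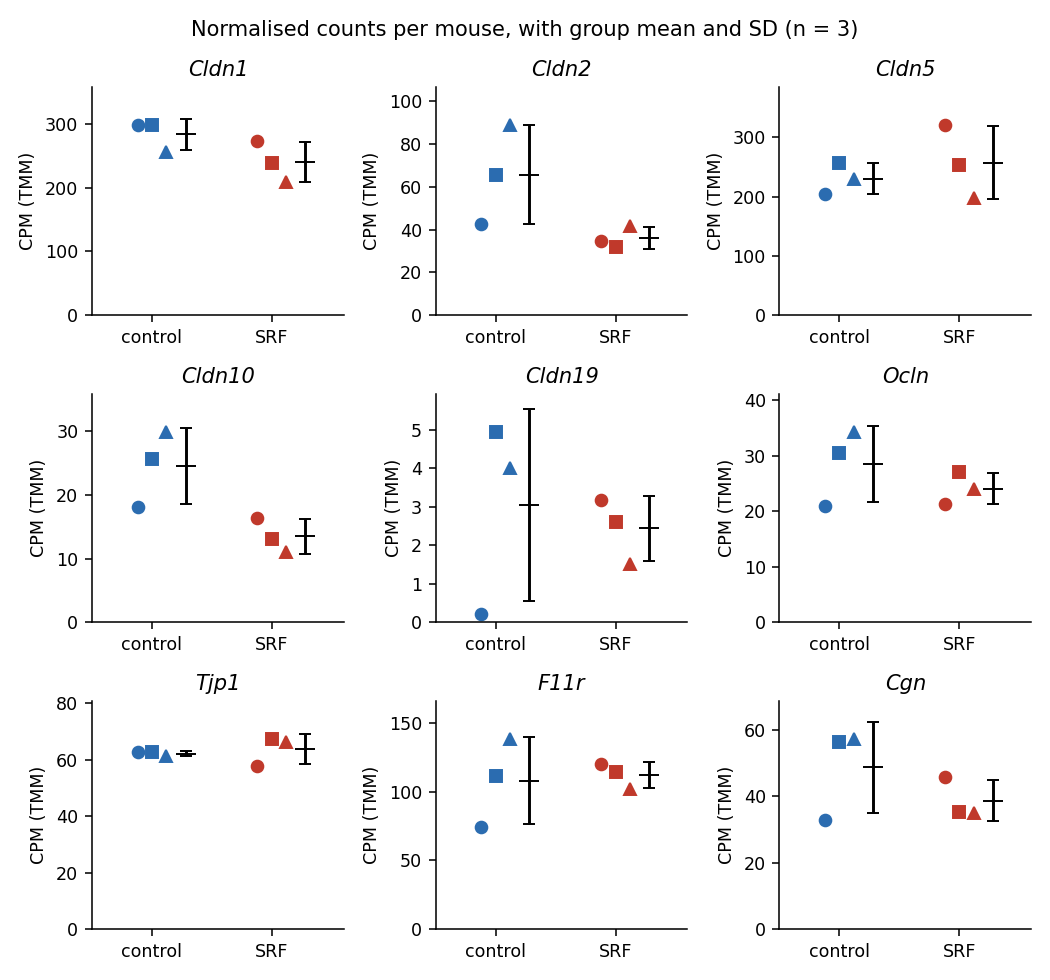
TMM-normalized CPM of each gene in control (blue) and SRF (red) mice, with circles, squares and triangles for mice 1, 2 and 3 and black bars for the mean and SD of each group (n = 3). The groups do not overlap for Cldn2 and Cldn10 and overlap for the other 7 genes.

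The abundant sealing claudins Cldn1 and Cldn5 did not differ beyond the spread between mice. Cldn1 (ENSMUSG00000022512, chromosome 16, 26356642 to 26371841, reverse strand) was at 298, 298 and 256 CPM in control mice 1, 2 and 3 and at 273, 239 and 210 CPM in SRF mice. The groups overlapped, with SRF mouse 1 above control mouse 3. The log2 fold change was -0.24, with a standard error of 0.14 (adjusted p = 0.853 in edgeR by the Benjamini-Hochberg method). The course of Cldn1 over the 6 mice was close to that of the RPE markers. After centring each on its mean of log2 CPM, the root mean square difference between Cldn1 and the mean of the 19 RPE genes was 0.06, against 0.16 to the endothelial genes, the next closest of 7 marker lists. Both Cldn1 and the RPE markers differed little between mice, which makes such a distance small.

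Cldn5 (ENSMUSG00000041378, chromosome 16, 18776847 to 18778262, forward strand), a gene of a single exon, was at 205, 256 and 230 CPM in control mice 1, 2 and 3. In SRF mice 1, 2 and 3 it was at 320, 253 and 198 CPM, so that SRF mice gave both the highest and the lowest value. The log2 fold change was 0.16, with a standard error of 0.19 (adjusted p = 0.995 in edgeR by the Benjamini-Hochberg method), and without SRF mouse 1 it was -0.03. Cldn5 was closest in course to the endothelial markers, with a root mean square difference of 0.11 to the mean of 19 genes such as Pecam1, Kdr and Cdh5, the smallest to any of the 7 lists. Those genes had a median log2 fold change of 0.03, with 13 positive and 6 negative. Cldn5 was 1.28 ± 0.0897 log2 units (SD, n = 3) above their mean in control and 1.38 ± 0.154 in SRF mice (exact permutation test, two-sided, p = 0.5, where 3 mice against 3 cannot go under 0.1).

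Cldn19, taken as the RPE claudin, was low in every library and far from the RPE markers in control mouse 1. Cldn19 (ENSMUSG00000066058, chromosome 4, 119255414 to 119262438, forward strand) was counted 3, 91 and 96 times in control mice 1, 2 and 3, and 59, 47 and 27 times in the 3 SRF mice. On the CPM scale the Cldn19 values were 0.223, 4.94 and 4.01 in control and 3.19, 2.62 and 1.51 in SRF mice. The lowest and the highest value both came from control mice. Control mouse 2 had 22.1 times the Cldn19 of control mouse 1 (95% exact interval 7.33 to 109, for counting error only), while the mean level of the RPE markers differed 1.05-fold between the same mice. Over the 6 mice, the spread of Cldn19, an SD of 1.44 log2 units, was larger than that of 98.2% of all genes tested.

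Beside the marker lists, Cldn19 was closest to the ocular surface epithelium genes, with a root mean square difference of 0.59 on the log2 scale, against 1.33 to the RPE genes and 1.37 to 10 Schwann cell genes, another cell type known for this claudin. This difference rests on control mouse 1, where Cldn19 had 3 counts. Without that mouse, Cldn19 was at 0.37 from the RPE genes and 0.38 from the surface epithelium genes, and it put the other 5 mice in the same order as the RPE genes did. With any other mouse left out, surface epithelium was the closest list, at 0.55 to 0.65. Surface epithelium RNA was likewise lowest in control mouse 1, and its mean was 4.44-fold higher in control mouse 2. The gene closest to Cldn19 was Prss8, an epithelial membrane protease, with Cysrt1 and Alox12e, a lipoxygenase of epidermis, next. Without control mouse 1, these were the 32nd, 127th and 205th closest genes. An antisense gene, Gm12927, overlaps the start of Cldn19 in the annotation and is not listed in the tables. Cldn19 had a log2 fold change of -0.34 (standard error 0.87, adjusted p = 0.9999 in edgeR by the Benjamini-Hochberg method). Without control mouse 1 it was -0.87, and without control mouse 2 it was 0.17. Relative to the mean of the RPE markers, Cldn19 was at -8.83 ± 2.19 log2 units in control and -8.13 ± 0.390 in SRF mice (exact permutation test, two-sided, p = 1, n = 3). Without control mouse 1 the direction of this difference turned, from 0.70 to -0.57 log2 units.

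**Figure D3:**
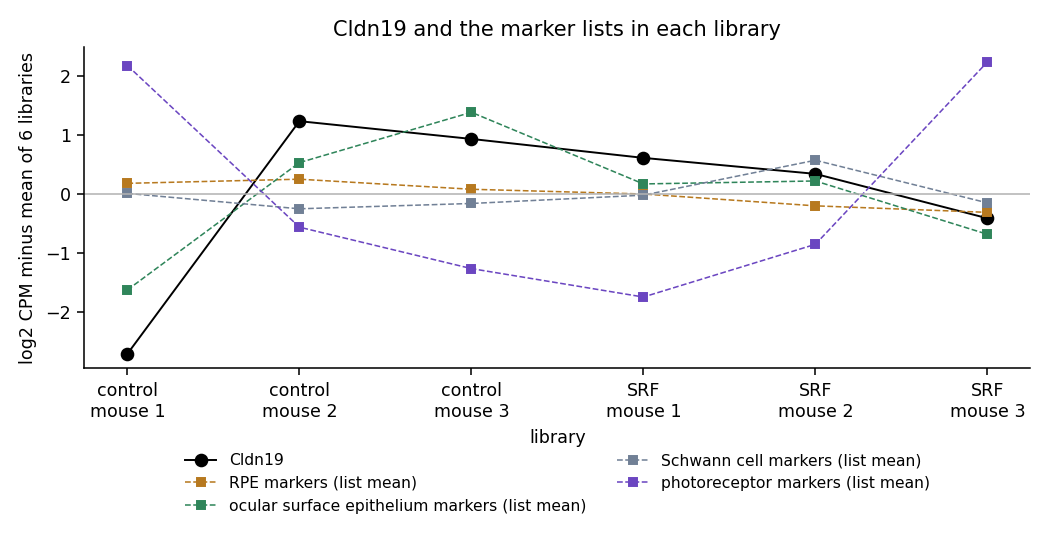
Log2 CPM of Cldn19 (black) and the mean of 4 marker lists in each of the 6 libraries, each centred on its mean over the libraries, with lines that only join the points of a series. In control mouse 1, Cldn19 is at -2.7 log2 units from its mean, where the surface epithelium genes are at -1.62 and the RPE genes at 0.18.

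The membrane proteins Ocln and F11r overlapped between the groups. Ocln (ENSMUSG00000021638, chromosome 13, 100496507 to 100552718, reverse strand) was at 20.9, 30.4 and 34.3 CPM in control and at 21.4, 27.0 and 24.0 CPM in SRF mice. Control mouse 1 was again the lowest of all, and the log2 fold change was -0.25 (standard error 0.20). Without that mouse, the log2 fold change of Ocln was -0.42 (standard error 0.16, adjusted p = 0.582 in edgeR by the Benjamini-Hochberg method). F11r (ENSMUSG00000038235, chromosome 1, 171437535 to 171464603, forward strand), whose protein is also carried by leukocytes and platelets, was at 74.6, 111 and 138 CPM in control and at 120, 114 and 102 CPM in SRF mice. The 3 SRF mice lay inside the range of the control mice. F11r differed by 0.05 on the log2 scale (standard error 0.22), and by -0.15 without control mouse 1.

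The scaffold genes differed in how even they were. Tjp1 (ENSMUSG00000030516, chromosome 7, 65296165 to 65527781, reverse strand) was at 62.5, 62.6 and 61.2 CPM in control and at 57.7, 67.2 and 66.4 CPM in SRF mice, the narrowest range of the 9 genes. Its SD of 0.08 log2 units over the 6 mice was larger than that of only 2.63% of all genes tested, whose median was 0.24. The log2 fold change of Tjp1 was 0.04 (standard error 0.11). Cgn (ENSMUSG00000068876, chromosome 3, 94760069 to 94786492, reverse strand), found in epithelial junctions, was at 32.8, 56.3 and 57.2 CPM in control and at 45.96, 35.4 and 34.9 CPM in SRF mice. Control mouse 1 fell among the SRF mice, and the log2 fold change was -0.33 (standard error 0.24). Without that mouse, the log2 fold change of Cgn was -0.55 (standard error 0.16, adjusted p = 0.449 in edgeR by the Benjamini-Hochberg method). With all mice in the fit, edgeR gave p-values between 0.921 and 0.9999 for Ocln, F11r, Tjp1 and Cgn after Benjamini-Hochberg adjustment.

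The rest of the junction was described with 4 lists of genes. Of 22 other claudins and claudin-like genes, 12 were in the tables and 6 had enough counts to be tested. In edgeR 0 of the 6 reached an unadjusted p-value under 0.05, beside 7.01% of all genes. The median log2 fold change of the 6 was -0.21. The most abundant were Cldnd1 at a mean of 49.9 FPKM, Cldn12 at 12.1 FPKM and Cldn11, a claudin of myelin and other barriers, at 10.4 FPKM. Cldn12 was at 47.1, 43.5 and 56.1 CPM in control and at 31.8, 27.95 and 54.0 CPM in SRF mice, and SRF mouse 3 was inside the control range.

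Of 13 other membrane proteins of the junction, 12 were in the tables and 11 were tested, with a median log2 fold change of -0.22. An unadjusted p-value under 0.05 in the edgeR test was reached by 2 of the 11, both lower in SRF, beside 2.85% of all genes lower. Cxadr, the coxsackievirus and adenovirus receptor, was at 37.2, 39.8 and 49.7 CPM in control and at 28.9, 28.6 and 37.1 CPM in SRF mice (log2 fold change -0.42, standard error 0.17). Crb3, an apical polarity protein, was at 16.0, 15.1 and 16.5 CPM in control and at 13.2, 10.9 and 6.50 CPM in SRF mice (log2 fold change -0.64, standard error 0.27). The groups did not overlap for either. With Jam3 they did not for 3 of the 11 genes, all lower in SRF, beside 6.43% of all genes. Crb3 and Cxadr both overlap counted genes on the opposite strand (Btg3 for Cxadr, Slc25a23 and Dennd1c for Crb3), so their counts are uncertain if counting ignored the strand. Jam3, at 42.1 FPKM the second most abundant of this list after Esam at 62.1 FPKM, was at 88.5, 86.3 and 90.0 CPM in control and at 83.3, 77.4 and 67.2 CPM in SRF mice. Its groups did not overlap either, but its log2 fold change was only -0.22 (standard error 0.12) and its unadjusted p-value in the edgeR test was 0.102. Jam2, at 19.4 FPKM, and Esam had log2 fold changes of 0.00 and 0.01.

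Of 31 names on a list of scaffold, polarity and signaling proteins, 30 were in the tables and were tested. The other name, Pals1, is another symbol of the gene listed as Mpp5 and was not in the annotation under that name. The median log2 fold change of the 30 was -0.04, with 12 positive and 18 negative. An unadjusted p-value under 0.05 in the edgeR test was reached by 3 of the 30, 1 higher and 2 lower, beside 7.01% of all genes. Mpp5, the polarity partner of Crb3, was at 85.5, 76.9 and 65.1 CPM in control and at 64.2, 53.5 and 60.0 CPM in SRF mice (log2 fold change -0.36, standard error 0.14). Arhgef18, a RhoA activator of epithelial junctions, was at 84.6, 95.5 and 91.4 CPM in control and at 78.8, 76.2 and 63.6 CPM in SRF mice (log2 fold change -0.31, standard error 0.12). Tjap1 was higher, at 25.4, 25.6 and 24.1 CPM in control against 32.7, 35.4 and 29.4 CPM in SRF mice (log2 fold change 0.38, standard error 0.12). The most abundant of the list, Vapa at 84.9 FPKM, Lin7c at 25.4 FPKM and Ybx3 at 21.2 FPKM, had overlapping groups.

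Adherens junctions, the cadherin-based contacts beneath the tight junction, gave no gene of 12 with an unadjusted p-value under 0.05 in the edgeR test. Of all genes tested, 7.01% reached it. The median log2 fold change of the 12 genes was 0.09. Ctnna1, Ctnnb1 and Jup, the catenins that link cadherins to the cytoskeleton, were the most abundant, at 111, 107 and 57.5 FPKM, with log2 fold changes of -0.12, 0.10 and 0.09. In all 4 lists, 0 genes were called after Benjamini-Hochberg adjustment in edgeR or in DESeq2, beside 0% and 1.14% of all genes.

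**Figure D4:**
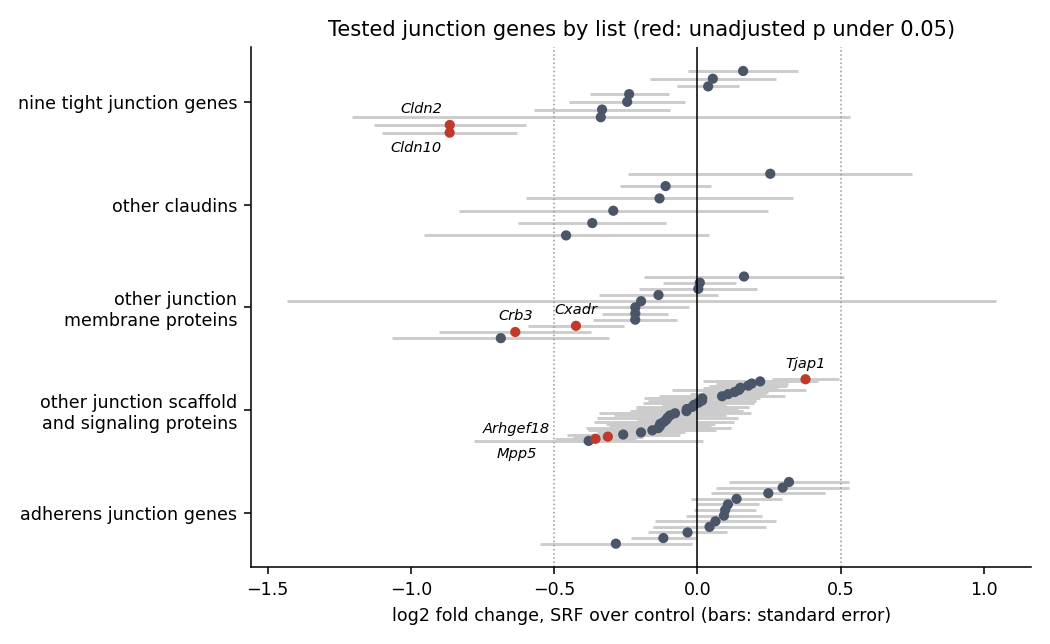
Log2 fold change (SRF over control) of every tested gene of the 9 members and of 4 other junction lists, with standard errors from edgeR as bars, red points for an unadjusted p-value under 0.05 and dotted lines at 0.5 either way. Cldn2 and Cldn10, at -0.86, lie furthest from 0 of all genes shown.

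For the other members, the genes with the most similar course over the 6 mice were found in the same way, as the smallest root mean square difference of centred log2 CPM, outside the 9. Cldn10 was closest to Dusp6, an ERK phosphatase (0.108), then to Tnfrsf10b and the desmosome gene Dsp, which is also in the surface epithelium list. Cldn2 had no gene as near, with Stc1 at 0.165, Zfp454 at 0.200 and the retinol dehydrogenase Rdh10 at 0.217. Without control mouse 3, Stc1, Zfp454 and Rdh10 were the 40th, 18th and 46th closest genes to Cldn2. For Cldn10, Dusp6, Tnfrsf10b and Dsp were then the 2nd, 4th and 41st. Cldn5 was closest to Procr, the endothelial protein C receptor (0.033), and Cldn1 to Slc25a4, the mitochondrial ADP/ATP carrier (0.024). Ocln was closest to Thbd, thrombomodulin (0.062), F11r to Rab3d (0.029), Cgn to Mecom (0.096) and Tjp1 to Trappc9 (0.016). The median difference to all tested genes ran from 0.234 for Tjp1 to 1.331 for Cldn19, so the same distance means more for a gene that varied more.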

How the data were processed

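RNA-seq of RPE-choroid from 3 control and 3 SRF mice was analysed, with groups and mouse numbers taken from the sample labels. Per the study's methods and the submitters' notes, reads were filtered with FASTP and quantified per gene with StringTie. They deposited these counts, whole numbers without normalization, and FPKM values per gene and mouse. The aligner, genome build, annotation and strandedness are not given in the sources used here. Gene symbols and positions were taken from GENCODE M21 on GRCm38, which holds 15659 of the 15663 identifiers, and promoter windows from RefSeq on GRCm38.p6, in which all 9 genes matched.

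A gene was tested where 2 or more mice had over 50 counts, with edgeR 4.0.16 in R 4.3.3 (TMM, estimateDisp, glmQLFit with legacy = TRUE, glmQLFTest, group as the only term). Calls needed p under 0.05 after Benjamini-Hochberg adjustment and a log2 fold change of 0.5 or more in size, the thresholds in the study's methods, which used DESeq2. CPM values are TMM-normalized, log2 CPM was taken with a prior count of 2, values are given with the SD over 3 mice, and the standard error of a log2 fold change is that of the edgeR fit. The labels do not state whether mice differed in litter or day.

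The 9 genes, the other lists and the tests were chosen with earlier results of these data known. Named genes were the 9 and the 3 genes of each other junction list with the highest mean FPKM. Any gene of those lists with an unadjusted p-value under 0.05 was also named. Of the 3 genes most similar in course to each of the 9, all are named for Cldn2, Cldn10 and Cldn19. Only the closest is named for the other members. Jam3's groups and the Cldn12 values were described after they had been seen. Alternatives were DESeq2 1.42.0, limma 3.58.1 on log2(FPKM + 0.1) and log2(FPKM + 1), another form of the edgeR fit, RLE size factors, other filters, a replicate block, a photoreceptor covariate and leaving out each mouse. A surface epithelium covariate, DESeq2 with each mouse left out and the distances between courses with each mouse left out were chosen after seeing the data. On simulated counts for 13454 genes with the means and spread of this comparison, edgeR recovered 33% of genes changed by 1 on the log2 scale and 87% of those changed by 2, and DESeq2 67% and 98%. The changed genes were drawn only from genes with higher mean counts than Cldn19, so these rates do not cover Cldn19. Each gene was simulated on its own, without the tissue differences between mice that many genes share. Of the simulated calls, 12 of 132 by edgeR and 46 of 211 by DESeq2 were unchanged genes.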

Additional observations from a re-analysis of the deposited data

How the results depend on the processing

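Of all genes tested, edgeR called at most 0.0377% in any of its settings, limma on FPKM 0.0149% and DESeq2 on all mice 1.14%. None of the 9 genes was called in these fits, and the 4 other junction lists had 0 calls there too. The exceptions came from DESeq2 with a mouse left out, where the number of the 9 genes called ran from 0 to 2 (Cldn2 and Cldn10, without control mouse 1, where 246 of 13259 genes were called) and that of the other claudins from 0 to 1 (Cldn12, without SRF mouse 3, where 343 of 13224 genes were called). Log2 fold changes kept their direction in all 22 other settings for Cldn1, Cldn2, Cldn10, Ocln and Cgn, with Cldn2 between -1.10 and -0.58 and Cldn10 between -1.05 and -0.70. Cldn19 turned to 0.12 in limma on log2(FPKM + 0.1), to 0.05 with the replicate block and to 0.45 with the surface epithelium covariate. With each mouse left out in edgeR or DESeq2, Cldn19 ran from -0.87 to 0.17 (lowest -0.88 in DESeq2), Cldn5 from -0.03 to 0.32, F11r from -0.15 (-0.16 in DESeq2) to 0.27 and Tjp1 from -0.01 to 0.1. Cldn19 relative to RPE markers ran from -0.57 to 1.36 with each mouse left out, and Cldn5 relative to endothelial markers from 0.01 to 0.16. The cause of these turns was not tested.

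The mouse numbers mark different animals, and the labels do not say that same-numbered mice share a litter or day. The deviations of same-numbered mice from their group means had correlations of -0.48, 0.49 and -0.30 across genes. Control mouse 1 and SRF mouse 3, both rich in photoreceptor RNA, had a correlation of 0.61. Control mouse 2 and SRF mouse 1, neither of them rich in it, had one of 0.62. Such correlations cannot show whether mice shared a litter or day. In the edgeR fit that takes the mouse number as a replicate block, 0 of the 9 genes and 0% of all genes were called. An unadjusted p-value under 0.05 was reached by 3 of the 9 there, Cldn1 besides Cldn2 and Cldn10. The share of all genes under it in that fit is not given here. Cldn19, with 3 counts in control mouse 1, had the fewest counts of the 9 genes. Its standard error of 0.87 is as large as the log2 fold changes of Cldn2 and Cldn10, and was 0.38 in edgeR without control mouse 1. The cause of the low count in that mouse was not tested.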
